A study of Oryza sativa with 6 samples.

Results

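The type A response regulators are the early feedback genes of cytokinin signalling, and 9 of them (RR1 to RR7, RR9 and RR10) were followed here through the root transcriptomes of the rice cultivars 9311 and HHZ. They were taken from a list of gene identifiers that applies no threshold on their values. The list was chosen with earlier results of these data known. All 9 genes have a row among the 36844 genes of the deposited count table. There were 3 root libraries of 9311 and 3 of HHZ, both elite rice cultivars without a transgene or mutation named in the labels. Plants of both cultivars grew in nutrient solution to 50 days after germination, were kept for 2 days without NH4NO3 and were sampled 3 h after 1 mM NH4NO3 was returned. Every library thus comes from roots shortly after a nitrogen resupply, and no unsupplied or cytokinin-treated roots were measured. The labels speak of replicates and do not say whether each came from separate plants, so the p-values measure the spread between these libraries.

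Cytokinin is perceived by membrane histidine kinases, and the signal passes as a phosphate group over phosphotransfer proteins to response regulators in the nucleus. Type B regulators carry a DNA-binding domain and switch on target genes, among them the type A regulators, which consist of little more than the phosphate-receiving domain and dampen the pathway. Type A transcripts therefore rise within minutes to hours of cytokinin supply and are widely read as an output of the pathway. In roots, nitrogen supply is known to raise cytokinin synthesis, and cytokinin restrains the formation of crown and lateral roots. These points are general background and were not measured in the 6 libraries.

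The libraries held between 16622441 and 22324192 counts in 9311 and between 21273125 and 22646162 in HHZ. Levels are in CPM, read counts set against the library size that edgeR's TMM scaling yields, and 3 counts correspond to 0.128 to 0.175 CPM. A CPM value is not corrected for gene length, so levels are compared between libraries and not between genes. HHZ replicate 3 differed most from its own cultivar. The chi-square per degree of freedom over all tested genes was 104 and 89.1 between it and HHZ replicates 1 and 2, against 23.3 between those 2 libraries and 30.0 to 45.3 between pairs of 9311 libraries. Each gene's log2 fold change is given below with and without it. In whole roots, fewer cells that express a gene and less RNA of it per cell cannot be told apart.

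Of the 9 genes, 7 had enough counts to be tested (RR1, RR2, RR3, RR4, RR6, RR9 and RR10) and 2 (RR5 and RR7) were close to absent in both cultivars. RR4 was the 1 gene of the 7 that passed the test, with a 2.53-fold higher level in 9311. Over the whole table, the quasi-likelihood test of edgeR (p adjusted by Benjamini and Hochberg) placed 3.25% of 22554 tested genes at an adjusted p under 0.05 with higher expression in 9311 and 3.26% with higher expression in HHZ. No type A gene passed in the HHZ direction. In that direction 0 genes also had an unadjusted p under 0.05 in edgeR, and 0 passed in DESeq2 and limma-voom. DESeq2 called the same 1 of 7 genes, RR4, and 5.76% of all genes that received an adjusted p there were called higher in 9311. The median log2 fold change of the 7 genes, 9311 over HHZ, was 0.51, and that of all tested genes was -0.01. The log2 fold change was positive for 6 of the 7 genes, against 49.1% of all tested genes. Of these 6 genes, 5 did not pass the test on their own. With each library left out in turn, the number of positive genes ran from 5 to 7 and the median from 0.25 to 0.79. All 7 genes were measured in the same 6 libraries, and most of them moved together across these, so their directions do not count as separate observations.

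**Figure D1:**
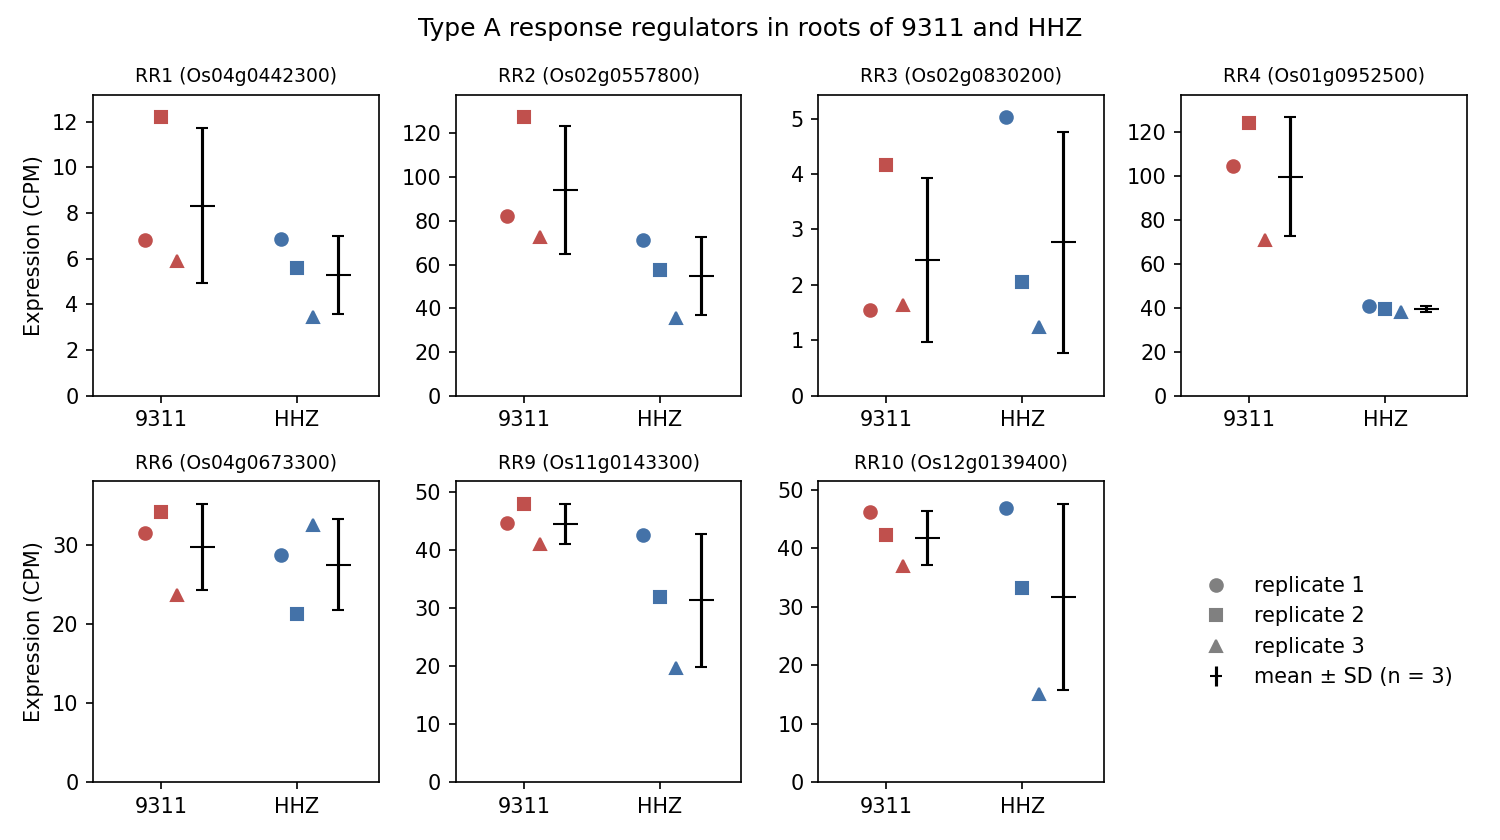
Expression in CPM (vertical axes, from 0, a separate scale per gene) of the 7 tested type A genes in roots of 9311 (red) and HHZ (blue), with 1 symbol per replicate library and the mean ± SD (n = 3) in black. RR4 lay at 70.6 CPM or more in every 9311 library and at 40.6 CPM or less in every HHZ library, and RR2 is the only other of these genes whose cultivars do not overlap.

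RR4 (Os01g0952500, chromosome 1) had 104, 124 and 70.6 CPM in 9311 replicates 1, 2 and 3, against 40.6, 39.2 and 38.2 CPM in HHZ replicates 1, 2 and 3. Every 9311 library lay above every HHZ library, and the lowest 9311 value was replicate 3. The HHZ libraries were nearly level, including replicate 3, which was low for most other type A genes. Mean expression was 99.6 ± 27.0 CPM in 9311 and 39.3 ± 1.23 CPM in HHZ (SD, n = 3 each). The log2 fold change was 1.34 (standard error 0.206, 95% interval 0.846 to 1.83), with an adjusted p of 0.0134 in edgeR's quasi-likelihood test over all genes. Among the genes called higher in 9311, 30.4% had a smaller fold change, so RR4 belongs to the moderate differences among these called genes. Among all tested genes, 4.06% had a log2 fold change at least as high as that of RR4. Within HHZ the SD of its log2 CPM was 0.045, at or above that of 4.71% of all tested genes, while in 9311 it was 0.41, at or above that of 82.1%.

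The call of RR4 was lost without any of 3 of the 6 libraries, while its log2 fold change stayed between 1.15 and 1.54 with each library left out in turn. The adjusted p in edgeR was 0.0599 without 9311 replicate 1, 0.0502 without HHZ replicate 1 and 0.0654 without HHZ replicate 2, all over the threshold. It was 0.0417 without 9311 replicate 2, 0.00457 without 9311 replicate 3 and 0.0190 without HHZ replicate 3. A two-sided exact permutation test of 3 libraries against 3 gave p = 0.1 for RR4, the smallest value this design allows. Every gene whose cultivars do not overlap gets this value, RR2 among them, so it adds no support beyond that order of the libraries.

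**Figure D2:**
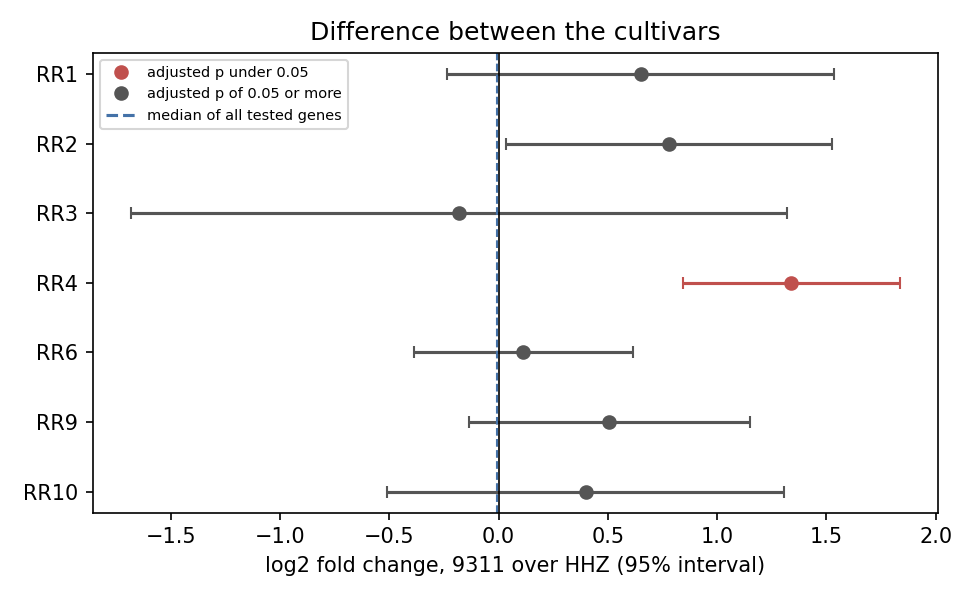
Log2 fold change, 9311 over HHZ (horizontal axis), of the 7 tested type A genes with its 95% interval from edgeR, coloured by the adjusted p, and the median of all tested genes as a dashed line. The interval of RR4 runs from 0.846 to 1.83 and lies farthest from 0, that of RR2 begins at 0.034, and those of the other 5 genes include 0.

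RR1 and RR2 are known from work on crown roots. In rice, RR1 is a target of the crown root regulator CRL5, and RR2 is repressed by the homeobox factor WOX11 in emerging crown roots. RR2 (Os02g0557800, chromosome 2) had 82.2, 127 and 72.4 CPM in 9311 replicates 1, 2 and 3, against 71.2, 57.4 and 35.5 CPM in HHZ replicates 1, 2 and 3. The cultivars did not overlap, but the gap was narrow, with 9311 replicate 3 just above HHZ replicate 1. RR2 and RR4 make 2 of 7 tested type A genes with every 9311 library above every HHZ library, and 13.0% of all tested genes showed that order. Mean expression of RR2 was 94.0 ± 29.3 CPM in 9311 and 54.7 ± 18.0 CPM in HHZ (SD, n = 3 each). Its log2 fold change was 0.78 (standard error 0.312, 95% interval 0.034 to 1.53), and it did not pass over all genes (unadjusted p = 0.0428, adjusted p = 0.220 in edgeR). Without 9311 replicate 2 the log2 fold change of RR2 was 0.49, without HHZ replicate 3 it was 0.53, and the adjusted p over all alternatives ran from 0.130 in DESeq2 to 0.522 in edgeR without 9311 replicate 2.

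RR1 (Os04g0442300, chromosome 4) had 6.83, 12.2 and 5.91 CPM in 9311 replicates 1, 2 and 3, against 6.86, 5.58 and 3.45 CPM in HHZ replicates 1, 2 and 3. The cultivars overlapped, since HHZ replicate 1 was on a level with 9311 replicate 1. The log2 fold change was 0.65 with a standard error of 0.369 (95% interval -0.23 to 1.53, adjusted p = 0.375 in edgeR), and without 9311 replicate 2 it was 0.26 (adjusted p = 0.788). Leaving out HHZ replicate 3 gave 0.41 (adjusted p = 0.494). Where RR1 was high, RR2 was high too. Within a library RR2 had 12.02, 10.4 and 12.3 times the counts of RR1 in 9311 replicates 1, 2 and 3, against 10.4, 10.3 and 10.3 times in HHZ replicates 1, 2 and 3. The lowest ratio in 9311 (10.44) and the highest in HHZ (10.38) were nearly equal. With 75 to 232 counts of RR1 per library, no difference between the cultivars is read from them. Over the 6 libraries RR1 ran from 3.45 to 12.2 CPM and RR2 from 35.5 to 127 CPM, while their ratio stayed between 10.3 and 12.3.

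RR9 and RR10 are close copies on the duplicated ends of chromosomes 11 and 12, and in rice both act as negative regulators of cytokinin signalling and of salt tolerance. Reads that fit both copies cannot be assigned with certainty, so the separate levels of the copies are uncertain. Their sum is given as well, and it holds only reads that were counted for either copy. RR9 (Os11g0143300) had 44.7, 47.9 and 41.0 CPM in 9311 replicates 1, 2 and 3, against 42.5, 31.9 and 19.6 CPM in HHZ replicates 1, 2 and 3. RR10 (Os12g0139400) had 46.2, 42.3 and 36.9 CPM in 9311 replicates 1, 2 and 3, against 46.9, 33.2 and 15.0 CPM in HHZ replicates 1, 2 and 3. For both genes HHZ replicate 1 was at the 9311 level and HHZ replicate 3 was by far the lowest library. In no library did the copies diverge much, with RR10 at 1.04, 0.884 and 0.901 times the counts of RR9 in 9311 replicates 1, 2 and 3, against 1.105, 1.04 and 0.767 times in HHZ replicates 1, 2 and 3.

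Neither copy passed the test. For RR9 the log2 fold change was 0.51 (standard error 0.269, 95% interval -0.14 to 1.15, adjusted p = 0.342 in edgeR). It was 0.40 for RR10 (standard error 0.379, 95% interval -0.51 to 1.31, adjusted p = 0.607 in edgeR). Summed to 1 row, the copies had 86.3 ± 7.32 CPM in 9311 and 63.0 ± 27.5 CPM in HHZ (SD, n = 3 each), and the log2 fold change of this sum was 0.45, with a standard error of 0.320 and an adjusted p of 0.479 in edgeR. Without HHZ replicate 3 the log2 fold change of the sum was 0.15 (adjusted p = 0.616), that of RR9 was 0.25 and that of RR10 was 0.05. Without HHZ replicate 1 it was 0.79 for each of the 2 genes and for the sum, again with no adjusted p under 0.05.

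RR6, whose overexpression in rice gives dwarf plants with poor roots that respond weakly to cytokinin, departed from the other type A genes in HHZ replicate 3. RR6 (Os04g0673300, chromosome 4) had 31.4, 34.2 and 23.6 CPM in 9311 replicates 1, 2 and 3, against 28.7, 21.2 and 32.6 CPM in HHZ replicates 1, 2 and 3. The cultivars overlapped fully, and HHZ replicate 3 was here the highest HHZ library. The log2 fold change was 0.11 (standard error 0.210, adjusted p = 0.804 in edgeR), and the 95% interval of -0.39 to 0.62 leaves out a change of 2-fold in either direction. Its sign turned with the scaling, to -0.0078 with library totals only, and turned also without 9311 replicate 2 (-0.0011) and without HHZ replicate 2 (-0.042). Without HHZ replicate 3 it was 0.24 (adjusted p = 0.511).

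RR3 (Os02g0830200, chromosome 2) was measured with few counts, 32, 79 and 28 in 9311 replicates 1, 2 and 3, against 115, 48 and 27 in HHZ replicates 1, 2 and 3. In CPM these are 1.54, 4.15 and 1.64 in 9311 and 5.02, 2.04 and 1.24 in HHZ. A single library was high in each cultivar, replicate 2 of 9311 and replicate 1 of HHZ. The log2 fold change was -0.18 (standard error 0.626, 95% interval -1.68 to 1.32, adjusted p = 0.902 in edgeR). It turned positive without 9311 replicate 1 (0.052), without 9311 replicate 3 (0.037) and without HHZ replicate 1 (0.57), and it was -0.54 without HHZ replicate 3. These libraries give RR3 no direction.

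RR5 (Os04g0524300, chromosome 4) had 0, 1 and 0 counts in 9311 replicates 1, 2 and 3 and 0 counts in every HHZ library. RR7 (Os07g0449700, chromosome 7) had 2, 2 and 0 counts in 9311 replicates 1, 2 and 3, against 1, 2 and 3 in HHZ replicates 1, 2 and 3. At these depths a count of 0 allows a level of up to 0.175 CPM, and neither gene could be tested. Reads of both cultivars were aligned to the Nipponbare reference, and the effect of this on the counts was not tested.

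**Figure D3:**
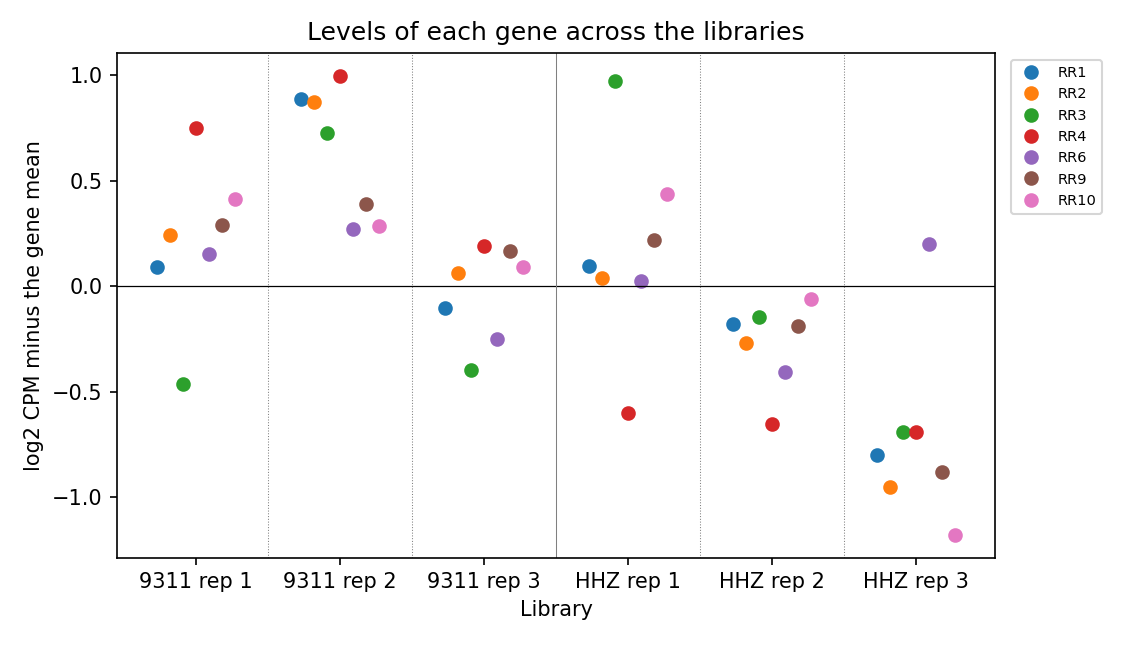
Log2 CPM of each tested type A gene minus its own mean over the 6 libraries (vertical axis), in the 3 libraries of 9311 and the 3 of HHZ (horizontal axis), with points of a library set side by side. RR1, RR2, RR3, RR9 and RR10 have their lowest point in HHZ replicate 3, RR4 is low in all 3 HHZ libraries, and RR6 is above its mean in HHZ replicate 3.

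Apart from the difference between cultivars, most type A genes moved together from library to library. HHZ replicate 3 was the lowest HHZ library for 6 of the 7 tested genes (all but RR6), and over all tested genes it was the lowest for 40.1%. Its log2 CPM differed from the mean of the other HHZ libraries by -1.36 for RR10, -1.11 for RR3, -0.89 for RR9, -0.84 for RR2 and -0.76 for RR1. Each of these lay in the lowest 7.52% of all tested genes, whose median was -0.01, and RR10 in the lowest 1.66%. RR4 differed by -0.06 and RR6 by 0.39. In 9311, replicate 2 was the highest library for 6 of the 7 genes (all but RR10), as it was for 32.1% of all tested genes. There RR3, RR1, RR2 and RR4 lay 1.16, 0.89, 0.72 and 0.53 above the mean of the other 9311 libraries on the log2 scale, and RR6, RR9 and RR10 lay 0.32, 0.16 and 0.03 above it. Among all tested genes, 7.03% exceeded the other 9311 libraries in replicate 2 by as much as RR4, 0.816% by as much as RR3, and 15.4%, 28.9% and 46.0% by as much as RR6, RR9 and RR10.

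The correlations across libraries describe the same pattern. After removal of each cultivar's mean, the log2 CPM of the 21 pairs of tested type A genes had a median Pearson r of 0.691 over 6 libraries, where the median of all pairs of tested genes was 0. It was positive for 19 of the 21 pairs and over 0.8 for 6 of them, as it was for 7.1% of all pairs. The closest pairs were RR1 with RR2 (r = 0.988) and RR9 with RR10 (r = 0.984), the close copies whose separate levels are uncertain. RR3 followed RR2 (r = 0.935) and RR1 (r = 0.926). RR6 was at -0.183 with RR9 and -0.255 with RR10, and reached 0.639 with RR4. These low values of RR6 rest on HHZ replicate 3, since over the other 5 libraries they were 0.908 with RR9 and 0.866 with RR10. Of all pairs of tested genes, 5.1% and 7.3% lay above these values. Removal of the cultivar means leaves fewer free values than libraries. Without HHZ replicate 3, the deviations of HHZ replicates 1 and 2 mirror each other. Without that library the median r of the 21 pairs was 0.815, and 11 pairs were over 0.8, against 10.8% of all pairs. All pairs share the same libraries and their scaling, so no p is given, and the values without HHZ replicate 3 were added after the data had been seen. Outside the group, 2 genes followed its mean log2 profile most closely over the 6 libraries, Os12g0577000 (r = 0.999, 0.0921 to 1.104 CPM) and Os04g0481000 (r = 0.996, 6.77 to 31.8 CPM). They are the 2 highest values among all other tested genes, of which 1.86% reached 0.9 or more. Os12g0577000 was measured with very few reads. Its 0.0921 CPM in HHZ replicate 3 lies under the 0.138 CPM that 3 counts give in that library, so its r is uncertain.

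RR4 differed from most of the group in HHZ replicate 3, where it lay near the other HHZ libraries. Over the other 5 libraries its deviations from the cultivar means followed RR1 (r = 0.83), RR2 (r = 0.83) and RR6 (r = 0.82). RR4 had a lower r with RR3 (0.58), RR9 (0.53) and RR10 (0.47). Its counts relative to RR6 in the same library, a ratio free of depth and scaling, were 3.32, 3.62 and 2.98 in 9311 replicates 1, 2 and 3, against 1.41, 1.85 and 1.17 in HHZ replicates 1, 2 and 3. These did not overlap, but RR6 was the tested type A gene least like the group's mean log2 profile (r = 0.294, against 0.777 for RR4). That profile averages all tested type A genes, so each r compares a gene with a mean that includes it. RR6 was also above its own mean in HHZ replicate 3, where most of the group was low. Relative to RR2 the counts of RR4 were 1.27, 0.972 and 0.974 in 9311, against 0.571, 0.682 and 1.07 in HHZ. There HHZ replicate 3 fell within the 9311 range. Relative to RR9 they were 2.34, 2.59 and 1.72 in 9311, against 0.957, 1.23 and 1.95 in HHZ, with the same overlap. A higher share of RR4 in 9311 held against all other tested type A genes in HHZ replicates 1 and 2, and HHZ replicate 3 overlapped 9311 for the genes that were low in it. These ratios were chosen after the values had been seen and carry no test.

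**Figure D4:**
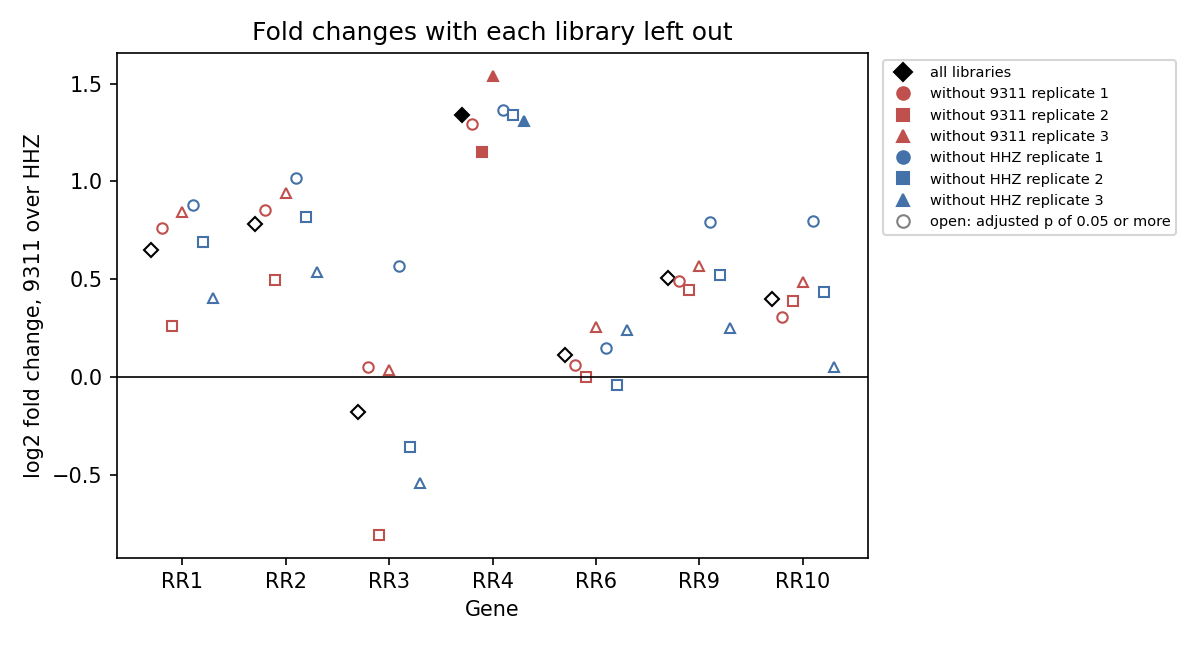
Log2 fold change, 9311 over HHZ (vertical axis), of each tested type A gene with all 6 libraries (black) and with 1 library left out (red for a 9311 library, blue for an HHZ library, with a symbol for the replicate), filled where the adjusted p in edgeR was under 0.05. RR4 stays between 1.15 and 1.54, RR3 and RR6 lie on both sides of 0, and RR9 and RR10 come closest to 0 without HHZ replicate 3.

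Leaving out HHZ replicate 3 lowered the median log2 fold change of the 7 genes to 0.25, and leaving out HHZ replicate 1 raised it to 0.79, against 0.51 with all libraries. For RR4 these 2 fits gave a log2 fold change of 1.31 without HHZ replicate 3 and 1.36 without HHZ replicate 1.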

How the data were processed

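Root RNA of 9311 and HHZ was sequenced in 3 libraries per cultivar. After adaptor trimming, the authors mapped reads with STAR on the IRGSP-1.0 reference, and the deposited values are raw counts per gene, not normalized. The submitters' processing notes list STAR 2.5.3a, and the methods text gives another version. The strand setting and annotation release are not given in the sources used here. The comparison of cultivars used R 4.3.3 and edgeR 4.0.16 (TMM, filterByExpr with minimum count 10, quasi-likelihood test, Benjamini-Hochberg adjustment over 22554 genes, threshold 0.05, cultivar as the only term). Standard errors are the log2 fold change over the square root of F, and 95% intervals use the moderated degrees of freedom. Log2 CPM used a pseudocount of 0.5. The code was tested on simulated counts. Alternatives comprised limma-voom (limma 3.58.1), DESeq2 1.42.0, other scalings and filters, a replicate block, RR9 and RR10 summed, and each library left out.

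All 9 genes of the list are named, together with the 2 genes closest to their mean profile. The members and lists were chosen with earlier results of these data known. The gene names came with the list, and 8 of the 9 were found in the RefSeq table of assembly ASM3414082v1, all 8 on the chromosome in the identifier. That table pairs 0 of the 9 identifiers, and 0 of 29 identifiers of other cytokinin genes and tissue markers, with a name. Other pathway genes, markers of root or shoot and sequences are therefore not analysed here.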

Additional observations from a re-analysis of the deposited data

How the results depend on the processing

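The number of type A genes called higher in 9311 was 1 (RR4) and fell to 0 with a replicate block, and it was 0 to 1 over the fits without 1 library. RR4 kept its direction in all 15 alternatives, with an adjusted p of 1.6e-06 to 0.0654, and was called in 11 of them. The replicate block gave it a log2 fold change of 1.30 (adjusted p = 0.0580 in edgeR). Deviations of same-numbered libraries from their cultivar means correlated at -0.135, 0.073 and -0.154 across genes. With means of 3 libraries, these values cannot decide whether equal numbers share a day or batch, and the labels do not say so. RR1, RR2, RR9 and RR10 kept their direction and were called in 0 of their alternatives. RR3 ran from -0.81 to 0.57 and RR6 from -0.042 to 0.26 without 1 library, and RR6 was -0.0078 with library totals only, which shifts the median of all genes to -0.13.

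Over all genes, the calls numbered 733 (higher in 9311) and 735 (higher in HHZ). They came to 1476 and 1409 with DESeq2 and to 276 and 287 where every library had to reach 10 counts. The replicate block gave 234 and 236, and the fits without 1 library gave 385 to 1591 and 376 to 1133, with the highest numbers without HHZ replicate 3. The stricter filter left 20127 genes to test, against 22554 in the main fit. The causes of these changes in number were not tested. RR3 had 27 to 115 counts per library, with an SD of log2 CPM of 0.67 in 9311 and 0.85 in HHZ, and RR5 and RR7 had at most 3 counts.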
